A study of Homo sapiens with 4 samples.

Results

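The messages of 10 genes of the BCL2 family and of the apoptosis inhibitors were followed in T24 cells, a line established from a human bladder carcinoma. The genes were chosen by symbol, and all 10 were found among the 60623 genes of the table. The members were 3 anti-apoptotic genes (BCL2, BCL2L1 and MCL1), 2 effectors (BAX and BAK1), 4 BH3-only genes (BCL2L11, BID, BAD and PMAIP1) and 1 gene of the IAP family (BIRC5). Total RNA was sequenced from 2 libraries of control T24 cells (CON) and 2 libraries of T24 cells overexpressing CBX7, a chromobox reader protein of polycomb repressive complex 1. The study's methods describe full-length CBX7 cloned into a pCDH-3xFLAG vector, and all groups came from 1 cell line. Nothing in the sources used here says whether the 2 libraries of a group came from separate cultures, so the p-values measure the spread between these libraries, which may be technical. The comparison asked whether the messages that set the balance between survival and mitochondrial apoptosis differed when CBX7 was overexpressed.

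The BCL2 family controls the integrity of the outer mitochondrial membrane. BAX and BAK1 are the effectors that oligomerize and open pores, through which cytochrome c reaches the cytosol and starts the caspase cascade. Anti-apoptotic proteins such as BCL2, BCL-xL (encoded by BCL2L1) and MCL1 hold effectors and BH3-only proteins in a groove, and BH3-only proteins such as BIM (encoded by BCL2L11), BID, BAD and NOXA (encoded by PMAIP1) insert their BH3 helix into that groove. BIRC5 encodes survivin, a BIR-domain protein that sits in the chromosomal passenger complex in mitosis and is counted among the inhibitors of apoptosis. Much of the control of these proteins is exerted after transcription, by cleavage of BID, phosphorylation of BAD and rapid turnover of MCL1 and NOXA, none of which RNA levels show.

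The BH3 core is the stretch that the family shares, so the coding bases of it are given for each member that has one. Each line shows 30 bases of coding sequence, 5′ to 3′, from 1 coding transcript of the gene in GENCODE release 29 (GRCh38). Capitals mark the 18 bases that encode the core, which was searched for as leucine, any 3 residues, glycine or serine, and aspartate.
BCL2: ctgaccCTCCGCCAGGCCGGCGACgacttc
BCL2L1: caagcgCTGAGGGAGGCAGGCGACgagttt
MCL1: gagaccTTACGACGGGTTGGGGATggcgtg
BAX: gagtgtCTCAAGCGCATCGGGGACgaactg
BAK1: cggcagCTCGCCATCATCGGGGACgacatc
BCL2L11: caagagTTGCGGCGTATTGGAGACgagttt
BID: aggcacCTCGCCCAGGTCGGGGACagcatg
BAD: cgcgagCTCCGGAGGATGAGTGACgagttt
PMAIP1: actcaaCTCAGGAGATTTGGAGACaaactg

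The core was found in 9 of the 10 members, and BIRC5, which has no BH3 domain, was the exception. BAD alone among the 9 carried a serine codon in place of the glycine codon. In BID the pattern occurred at 2 places, and the copy that lies in the BH3 helix (residues 136 to 141 of the 241 encoded by this transcript) is shown. The pattern is short: 26.4% of 19433 coding genes held it somewhere, and 13.8% held it with glycine, so a match by itself does not mark a family member.

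The libraries held between 20800910 and 25135488 estimated counts. CBX7 itself had TMM-normalized levels of 10.9 and 9.67 CPM (counts scaled to the size of the library) in the control libraries and of 1774 and 1595 CPM in the CBX7 libraries, so the labels matched the overexpressed gene. Keratins of epithelial cells (KRT7, KRT8 and KRT18) lay between 853 and 1465 TPM (a transcript level scaled by gene length and library size), and of the 6 urothelial genes PPARG lay between 22.8 and 25.9 TPM and FOXA1 between 6.78 and 9.36 TPM, while GATA3, UPK1B, UPK2 and UPK3A did not exceed 0.82 TPM. CDH1 did not exceed 0.03 TPM. Leukocyte and endothelial markers other than CD68 were at most 0.14 TPM. Of the 25 marker genes 13 had enough counts to be tested, of which 0 passed an adjusted p of 0.05 and 5 had an unadjusted p under 0.05 in edgeR's quasi-likelihood test, beside 4.74% of all genes. These were KRT19, GATA3 and COL1A1, with log2 fold changes of 1.35, 2.28 and 0.71, and FN1 and CD68, at -1.03 and -0.60. GATA3 had 3 and 4 estimated counts in control cells and 14 and 22 with CBX7. COL1A1 had 60 and 54 against 87 and 106. In TPM the groups overlapped for GATA3 and COL1A1. In DESeq2's Wald test KRT19 and FN1 passed the adjusted threshold, 2 of the 13, beside 0.451% of all genes. They also passed in edgeR when genes with few counts were kept, 2 of 23 tested, beside 1.01%. KRT19 was at 7.64 and 6.64 TPM in control cells and 17.3 and 15.1 TPM with CBX7, and FN1 at 550.4 and 545 TPM against 255 and 311 TPM. Summed over its 6 genes, the epithelial list held 3248 and 3151 TPM in the control libraries and 3730 and 3351 TPM in the CBX7 libraries. The mesenchymal list (VIM, CDH2 and FN1) held 3357 and 3327 TPM against 2495 and 2592 TPM. The part of these differences in the results was not tested.

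Gene length set the replicate 1 libraries apart. When the 11077 genes that averaged 100 counts or more were placed in 10 bins of length, the median log2 ratio between CBX7 and control libraries of replicate 1 went from 0.38 in the bin of the shortest genes to -0.38 in the bin of the longest, and in replicate 2 it stayed between -0.02 and 0.00. Spearman's correlation between this ratio and length was -0.62 in replicate 1 and 0.04 in replicate 2. Within the groups, replicate 1 over replicate 2 gave -0.49 for the controls and -0.70 for the CBX7 libraries. The members run from 1157 bases (BAD) to 7461 bases (BCL2), so this trend stands beside each of their values.

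None of the 10 members passed an adjusted p of 0.05 between CBX7-overexpressing and control cells (quasi-likelihood test of edgeR, adjusted by Benjamini-Hochberg over all 14862 genes tested, of which 0.0202% passed). DESeq2's Wald test also called 0 of the 10, against 0.451% of all genes. In edgeR the count was likewise 0 of 10 when genes with few counts were kept, where 1.01% of all genes passed, and 0 of 10 when each library had been corrected for its trend with length, where 0.0135% passed. At an unadjusted p under 0.05 there was 1 member, BID, which was higher with CBX7, in either test, and the share of all genes that were higher at this level was 3.42% in edgeR and 2.26% in DESeq2. Of the 10 fitted log2 fold changes 5 were above 0 and 5 below, from -0.35 (BCL2) to 0.44 (BID), with a median of 0.05, against a median of 0.00 over all genes tested and quartiles of -0.14 and 0.16. In TMM-normalized CPM the lower of the CBX7 libraries exceeded the higher of the controls for BCL2L1, BID and BIRC5, and the reverse held for BCL2 and BCL2L11. That is 3 and 2 of the 10 members, beside 15.4% and 14.8% of all genes tested. In TPM the counts were also 3 (BAX, BID and BIRC5) and 2 (BAK1 and BCL2L11), beside 12.2% and 17.4%. In length-corrected CPM they were 4 (BCL2L1, BAX, BID and BIRC5) and 3 (BCL2, BAK1 and BCL2L11), beside 18.4% and 18.3%. For 1 gene with 2 libraries against 2, the smallest two-sided p of an exact permutation test is 0.333. The members had between 125 and 11239 counts in a library, and the fitted standard errors were 1.70 to 10.6 times what counting error alone would give. When CBX7 replicate 2 was left out, 6 members (BAD, BAX, BCL2, BCL2L11, BID and BIRC5) passed an adjusted p of 0.05 in edgeR, and so did 35.5% of all genes, in a fit that assumes the lone CBX7 library to vary like the controls and that gave every gene the spread of the trend across genes. Without CBX7 replicate 1, control replicate 1 or control replicate 2 there were 0 calls among the members, beside 2.59%, 0.384% and 0.291% of all genes.

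**Figure D1:**
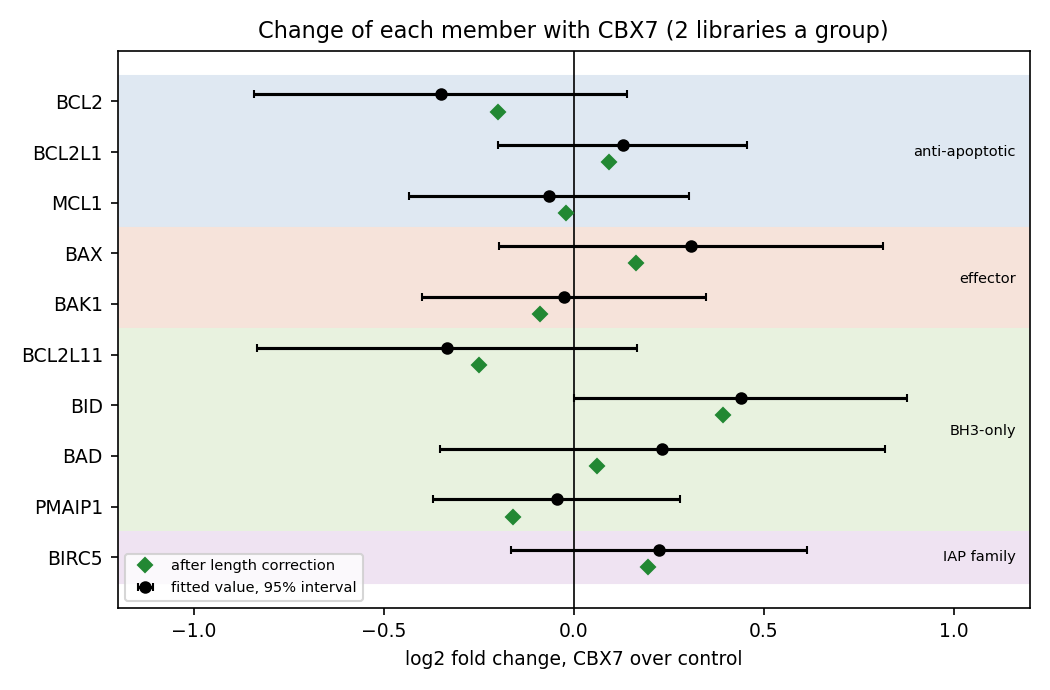
Log2 fold change of each member, CBX7-overexpressing over control T24 cells, on the horizontal axis, with members in rows shaded by class. Black points are fitted values with 95% intervals (2 libraries a group) and green diamonds are the values after the length correction. The interval of BID starts just above 0, and the intervals of the other 9 members include 0.

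In levels scaled by length, the anti-apoptotic messages BCL2L1 and MCL1 had the highest mean levels of the members. Averaged over the 4 libraries, BCL2L1 stood at 167 TPM and MCL1 at 165 TPM, and their ranges overlapped. The range of MCL1, 122 to 190.8 TPM, also overlapped those of BAD and BAX, and in CBX7 replicate 1 MCL1 was below both. BAD (129 TPM), BAX (111 TPM) and BIRC5 (103 TPM) came next, each with a range that overlapped that of its neighbour. PMAIP1 and BID followed at 84.2 and 84.0 TPM, with overlapping ranges that lay below that of BIRC5. BAK1 was apart from both neighbours at 25.6 TPM, with a range of 23.7 to 27.2 TPM. BCL2 at 3.42 TPM and BCL2L11 at 2.08 TPM were the scarcest, and their ranges met between 2.26 and 2.37 TPM. The order in the middle depends on the length behind each TPM value. Relative to the typical gene of a library, the deposited TPM of BAX rested on 0.53 to 0.54 of the listed length and that of BAD on 0.69 to 0.70. That of PMAIP1 rested on 1.69 and that of BID on 0.54 to 0.57. With the listed length for every gene, MCL1 came first and PMAIP1 rose from rank 6 to rank 3. BAD fell from rank 3 to rank 5 and BAX from rank 4 to rank 6, while BAK1, BCL2 and BCL2L11 stayed at ranks 8, 9 and 10.

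**Figure D2:**
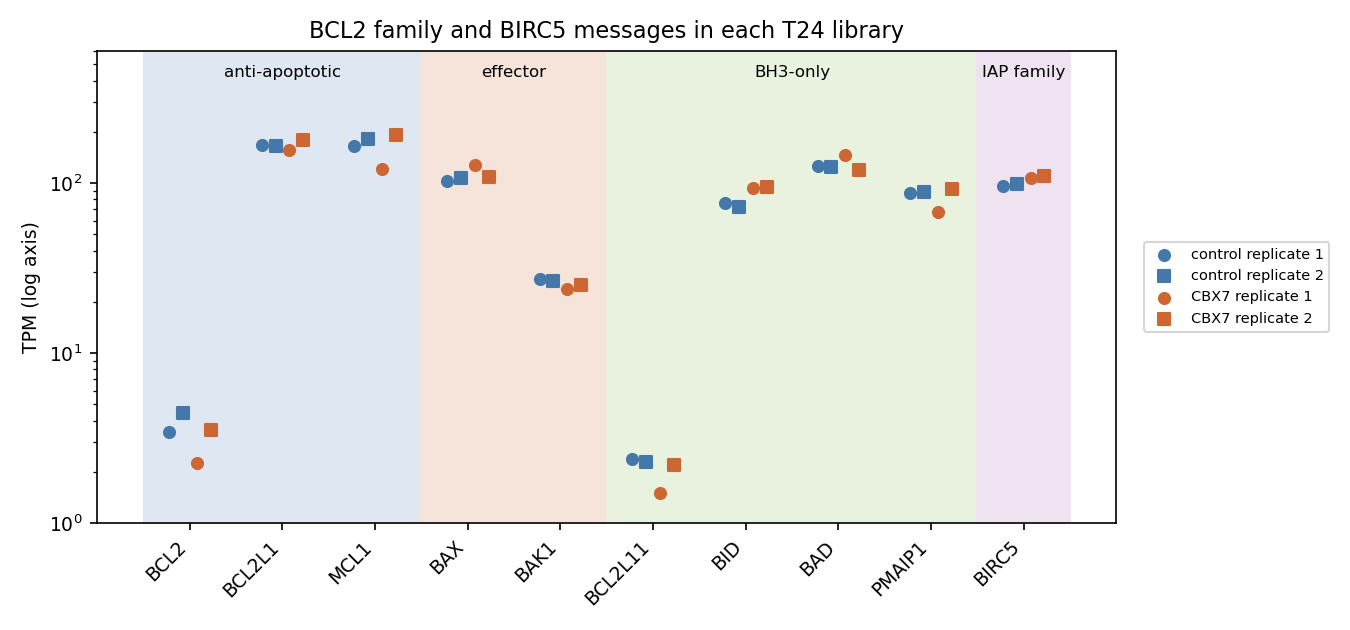
Deposited TPM (log axis) of the 10 members in each of the 4 libraries, with classes shaded. Circles are replicate 1, squares replicate 2, blue control and orange CBX7. BCL2 and BCL2L11 lie below 5 TPM in all libraries, BAK1 near 25 TPM and the other members between 67.6 and 190.8 TPM, and CBX7 replicate 1 is the lowest library for BCL2, BCL2L1, MCL1, BAK1, BCL2L11 and PMAIP1.

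BCL2 (ENSG00000171791, chromosome 18 from 63123346 to 63320128 in GRCh38, minus strand) encodes the founding anti-apoptotic protein. It had TMM-normalized levels of 15.8 and 19.8 CPM in control replicates 1 and 2 and of 12.3 and 15.7 CPM in CBX7 replicates 1 and 2. Both CBX7 libraries were lower than both controls, but the nearest libraries of the groups differed by little, and in TPM the groups overlapped (3.42 and 4.45 against 2.26 and 3.53). The fitted log2 fold change was -0.35 with a standard error of 0.20 and a 95% interval of -0.84 to 0.14 (adjusted p = 0.951, edgeR). BCL2 is the longest member, and after the length correction its value was -0.20 with a standard error of 0.12. Its ratio between same-numbered libraries was -0.37 in replicate 1 and -0.34 in replicate 2 on the log2 scale. Leaving out 1 library gave values from -0.53 without CBX7 replicate 2 to -0.18 without CBX7 replicate 1.

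BCL2L1 (ENSG00000171552, chromosome 20 from 31664452 to 31723989, minus strand) encodes BCL-xL and, by another splice site, the pro-apoptotic BCL-xS, which a gene total does not separate. Its levels were 271.8 and 262 CPM in control cells and 310 and 274 CPM with CBX7. The CBX7 libraries were above the controls by a narrow margin, and in TPM they lay on either side of them (156.3 and 178 against 167 and 166). This gave a log2 fold change of 0.13 (standard error 0.13) with an interval of -0.20 to 0.46 (adjusted p = 0.951, edgeR), and it was 0.04 without CBX7 replicate 1 and 0.21 without CBX7 replicate 2. With the length correction it was 0.09 with a standard error of 0.07. Of its 3314 exon bases in GENCODE, 1424 are shared with ABALON, an antisense RNA with 106 to 143 counts, and the sources used here do not state whether strand was used in counting.

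MCL1 (ENSG00000143384, chromosome 1 from 150574551 to 150579738, minus strand) encodes a short-lived anti-apoptotic protein and had the highest read level of the members. Its levels were 469.8 and 486 CPM in control cells and 411 and 503 CPM with CBX7. CBX7 replicate 1 was the lowest and CBX7 replicate 2 the highest of the 4 libraries. MCL1 had a log2 fold change of -0.06 (standard error 0.15) with an interval of -0.43 to 0.30 (adjusted p = 0.953, edgeR), and without CBX7 replicate 1 it was 0.08. The length-corrected value was -0.02 with a standard error of 0.08. On the linear scale the interval runs from 0.74-fold to 1.23-fold.

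BAX (ENSG00000087088, chromosome 19 from 48954815 to 48961798, plus strand) encodes the effector that moves from the cytosol to mitochondria. Its levels were 47.3 and 45.2 CPM in control cells and 67.7 and 46.9 CPM with CBX7. CBX7 replicate 1 stood apart, and CBX7 replicate 2 lay between the controls. BAX had a log2 fold change of 0.31 (standard error 0.20) with an interval of -0.20 to 0.81 (adjusted p = 0.951, edgeR). Without CBX7 replicate 1 the value was 0.02, and without CBX7 replicate 2 it was 0.55. At 1358 bases BAX is among the shortest members, and after the length correction it was at 0.16 with a standard error of 0.10.

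BAK1 (ENSG00000030110, chromosome 6 from 33572547 to 33580293, minus strand) encodes the effector that resides in the mitochondrial membrane. Its levels were 41.3 and 38.4 CPM in control cells and 42.6 and 35.7 CPM with CBX7, which are the highest and the lowest of the 4 values. For BAK1 the log2 fold change was -0.03 with a standard error of 0.15 and an interval of -0.40 to 0.35 (adjusted p = 0.980, edgeR), and it was 0.09 without CBX7 replicate 2 and 0.02 without control replicate 1. The length-corrected value was -0.09 with a standard error of 0.09. In TPM both CBX7 libraries were lower (23.7 and 25.0 against 27.2 and 26.4), as they were for 17.4% of all genes tested.

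BID (ENSG00000015475, chromosome 22 from 17734138 to 17774770, minus strand) links death receptors to mitochondria, since caspase-8 cleaves it into its active form. Its levels were 66.9 and 60.1 CPM in control cells and 97.5 and 74.7 CPM with CBX7. Both CBX7 libraries exceeded both controls, and the TPM values showed the same order with a smaller spread, at 76.0 and 72.1 TPM in control cells and 92.9 and 95.1 TPM with CBX7. BID was thus at a log2 fold change of 0.44, or 1.36-fold, with a standard error of 0.18 and an interval of 0.0004 to 0.88 (unadjusted p = 0.0499 and adjusted p = 0.951, edgeR's quasi-likelihood test). With DESeq2's size factors in the same test the value was 0.43 and the unadjusted p was no longer under 0.05. After the length correction the value was 0.39 with a standard error of 0.12 (adjusted p = 0.502). It was 0.24 without CBX7 replicate 1 (adjusted p = 0.453) and 0.62 without CBX7 replicate 2 (adjusted p = 3.91e-07), both from edgeR. The ratio between same-numbered libraries was 0.54 and 0.31 on the log2 scale, the highest of the members in both.

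BAD (ENSG00000002330, chromosome 11 from 64269830 to 64284704, minus strand) encodes a sensitizer that survival kinases hold inactive by phosphorylation. Its levels were 62.5 and 58.8 CPM in control cells and 87.3 and 55.3 CPM with CBX7. The 2 CBX7 libraries were the highest and the lowest of the 4, a log2 ratio of 0.66 between them, the widest within a group among the members. BAD had a log2 fold change of 0.23 (standard error 0.23) with an interval of -0.35 to 0.82 (adjusted p = 0.951, edgeR), and without CBX7 replicate 1 it was -0.13. BAD is the shortest member, and after the length correction its value was 0.06. It shares 404 of 1708 exon bases with GPR137 on the opposite strand, which had 441 to 612 counts against 1234 to 2109 for BAD.

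PMAIP1 (ENSG00000141682, chromosome 18 from 59899948 to 59904306, plus strand) encodes NOXA, which binds MCL1 and is a known target of the stress factor ATF4. Its levels were 117 and 112 CPM in control cells and 106 and 116 CPM with CBX7. CBX7 replicate 1 was the lowest library and CBX7 replicate 2 lay between the controls. PMAIP1 had a log2 fold change of -0.04 (standard error 0.13) with an interval of -0.37 to 0.28 (adjusted p = 0.956, edgeR), and without CBX7 replicate 1 it was 0.02. After the length correction it was -0.16 with a standard error of 0.17. PMAIP1 stood apart from the other short members in CBX7 replicate 1: with 1262 bases it was at -0.14 against control replicate 1 on the log2 scale, where BAD was at 0.48 and BAX at 0.52.

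BCL2L11 (ENSG00000153094, chromosome 2 from 111119378 to 111168447, plus strand) encodes BIM, an activator that binds all anti-apoptotic members. It was the scarcest member, with 183, 152, 125 and 149 estimated counts in control replicates 1 and 2 and CBX7 replicates 1 and 2. Its levels were 7.67 and 7.24 CPM in control cells and 5.18 and 6.67 CPM with CBX7. Both CBX7 libraries were lower than both controls, in CPM and in TPM, and CBX7 replicate 1 was farthest from the rest. Its log2 fold change was -0.33 with a standard error of 0.20 and an interval of -0.83 to 0.17 (adjusted p = 0.951, edgeR), and after the length correction it was -0.25 with a standard error of 0.15. Without CBX7 replicate 1 the value was -0.16, and without CBX7 replicate 2 it was -0.53. It shares 727 of 6658 exon bases with the long noncoding RNA MIR4435-2HG on the opposite strand, which had 1117 to 1476 counts, so part of its count cannot be told apart from that RNA if strand was not used.

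BIRC5 (ENSG00000089685, chromosome 17 from 78214186 to 78225636, plus strand) had levels of 164 and 161 CPM in control cells and of 212 and 168 CPM with CBX7. Both CBX7 libraries exceeded both controls, and in TPM the libraries of a group lay close together, at 96.2 and 98.3 TPM in control cells and 106.8 and 110.5 TPM with CBX7. For BIRC5 the log2 fold change was 0.22 with a standard error of 0.16 and an interval of -0.16 to 0.61 (adjusted p = 0.951, edgeR). After the length correction it was 0.20 with a standard error of 0.10. Without CBX7 replicate 1 it was 0.05, and without CBX7 replicate 2 it was 0.38. Its partners in the chromosomal passenger complex had log2 fold changes of 0.09 for the kinase AURKB (standard error 0.18), -0.17 for the scaffold INCENP (standard error 0.19) and -0.08 for CDCA8, which encodes borealin (standard error 0.13). Of 9 passenger and mitotic genes in the list, 0 passed the adjusted threshold and 0 had an unadjusted p under 0.05 in edgeR, from -0.20 for the proliferation antigen MKI67 to 0.14 for the mitotic cyclin CCNB1. After the length correction MKI67 was at -0.02 and CCNB1 at 0.07.

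**Figure D3:**
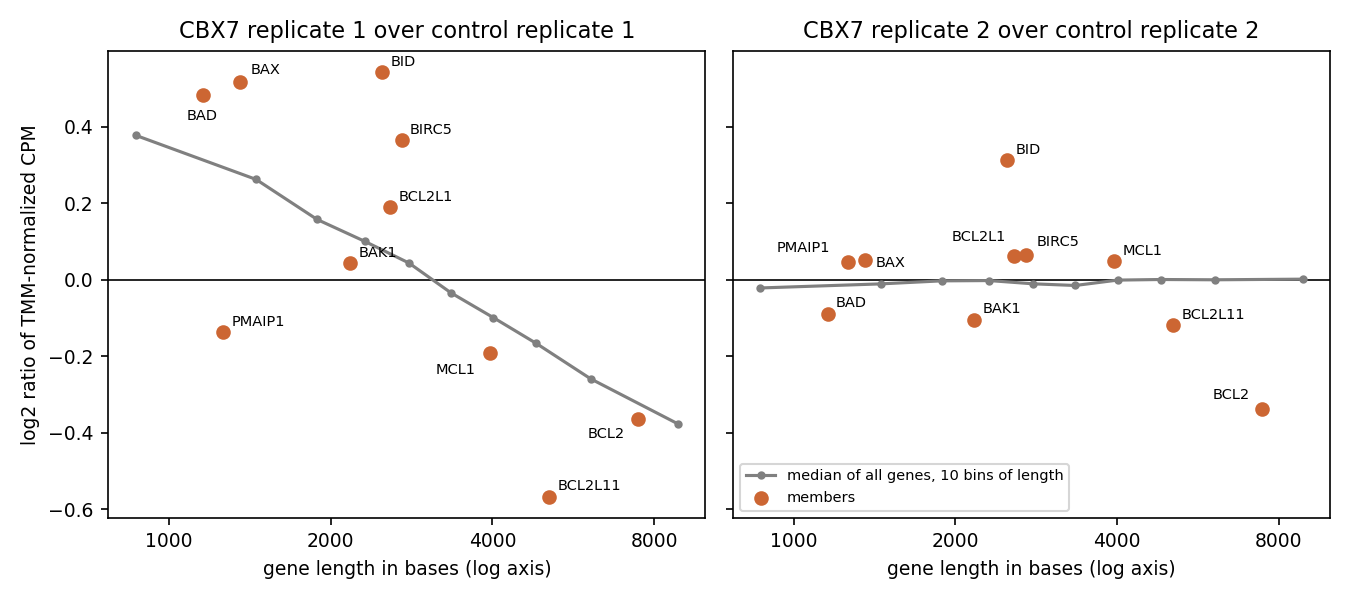
Log2 ratio of TMM-normalized CPM between same-numbered libraries against gene length (log axis), for replicate 1 on the left and replicate 2 on the right. Orange points are the 10 members and the grey line joins the medians of all genes in 10 bins of length. In replicate 1 the line falls from 0.38 to -0.38 and BAX, BAD, BID, BIRC5 and BCL2L1 lie above it, while in replicate 2 it is flat and BID, at 0.31, and BCL2, at -0.34, are farthest from it.

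Across the 10 members Spearman's correlation between gene length and the fitted log2 fold change was -0.64, and with the ratio between same-numbered libraries it was -0.62 in replicate 1 and -0.22 in replicate 2. After the length correction the first of these was -0.32. These are descriptions over 10 genes that share the same 4 libraries. The libraries of the CBX7 group differed more from each other than the controls did: the median absolute log2 ratio of the members was 0.34 between the CBX7 libraries and 0.07 between the control libraries, against 0.32 and 0.12 over all genes tested.

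The balance of the classes was compared as ratios of summed TPM within a library. The anti-apoptotic messages (BCL2, BCL2L1 and MCL1) outweighed the effectors (BAX and BAK1) by 2.57 and 2.64 in control replicates 1 and 2 and by 1.86 and 2.80 in CBX7 replicates 1 and 2. The 2 CBX7 libraries lay on opposite sides of the controls, so no shift larger than the spread between replicates was seen. The ratio of BH3-only (BCL2L11, BID, BAD and PMAIP1) to anti-apoptotic messages was 0.868 and 0.818 in control cells and 1.10 and 0.828 with CBX7. CBX7 replicate 1 was again apart, and CBX7 replicate 2 lay between the controls. BCL2L1 over MCL1 was 1.00 and 0.920 in control cells and 1.29 and 0.934 with CBX7, the same arrangement. With length-corrected CPM per kilobase of gene, CBX7 replicate 1 lay closer to the others in these 3 ratios: anti-apoptotic over effector messages were 4.15 and 4.19 in control cells and 3.76 and 4.32 with CBX7, and BH3-only over anti-apoptotic messages were 0.788 and 0.780 against 0.755 and 0.782, where CBX7 replicate 1 went from the highest to the lowest library. Both the lengths and the trend differ between these scales: the log2 difference of the group means of that ratio was 0.18 in deposited TPM, 0.10 in TPM recomputed with the listed lengths, and -0.03 with the trend corrected as well. BCL2L1 over MCL1 was then 0.892 and 0.868 against 1.04 and 0.877, with CBX7 replicate 1 still the highest.

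The summed levels themselves, in TPM, were 292 and 287 for the BH3-only messages in control cells and 309.1 and 308 with CBX7, so the groups did not overlap. Of all single genes tested, 12.2% had both CBX7 libraries above both controls in TPM. Without BID the BH3-only sums were 215.6 and 215.0 against 216 and 213, and they overlapped. For the effectors the sums were 130.5 and 133 against 150.8 and 133, and CBX7 replicate 2 was hardly above the controls. The anti-apoptotic sums were 336 and 351 in control cells and 280.1 and 373 with CBX7, on either side of the controls.

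In TPM of single genes, both CBX7 libraries lay above both controls for 12.2% of all genes tested and below them for 17.4%. No such share was computed for ratios. Of the 4 ratios, BAX over BAK1 was the one in which the groups did not overlap. It was 3.80 and 4.02 in control cells and 5.37 and 4.34 with CBX7. With length-corrected CPM per kilobase it was 1.85 and 1.94 against 2.34 and 2.18, so the order of the libraries remained. The log2 difference between the group means was 0.30 with a spread between replicates (pooled SD) of 0.16, from 0.50 between the libraries of replicate 1 to 0.11 between those of replicate 2, and no test is given for a ratio of members. In summed TPM the effectors made up 15.3% and 15.3% of the 10 messages in control cells and 17.8% and 14.4% with CBX7, and the BH3-only messages 34.1% and 33.0% against 36.5% and 33.4%. The anti-apoptotic messages made up 39.3% and 40.4% in control cells and 33.1% and 40.3% with CBX7. BIRC5 made up 11.3% and 11.3% against 12.6% and 12.0%, the one share of the 4 in which the groups did not overlap.

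**Figure D4:**
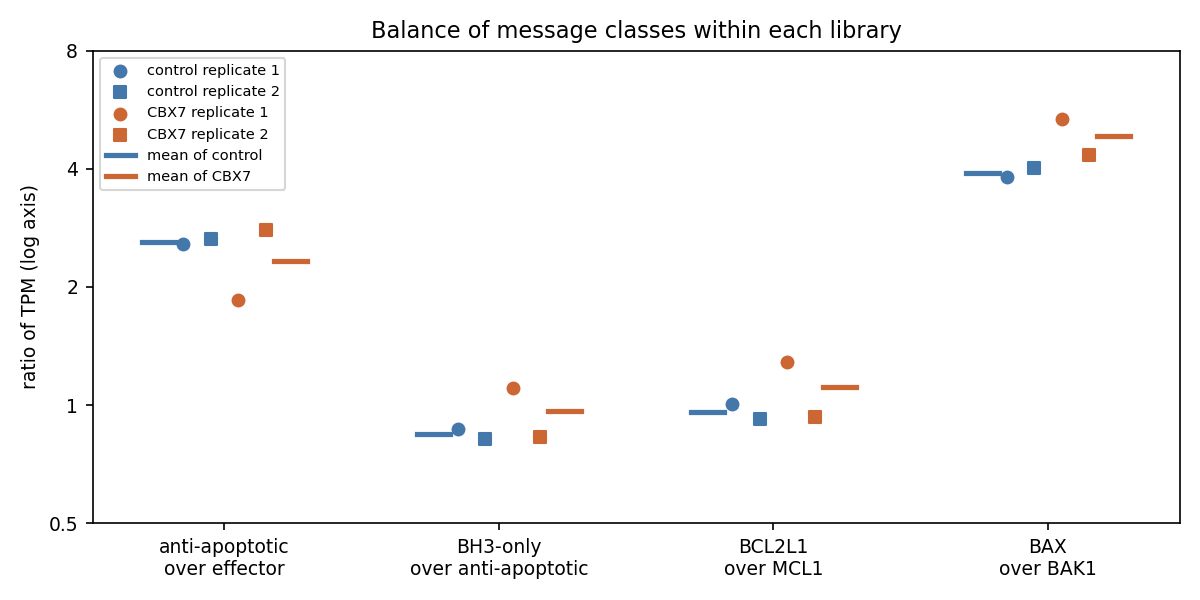
Ratios of TPM (log axis) between message classes and between gene pairs in each library. Circles are replicate 1, squares replicate 2, blue control and orange CBX7, and bars are group means. For the first 3 ratios CBX7 replicate 1 is apart and CBX7 replicate 2 is close to the controls, and for BAX over BAK1 both CBX7 libraries (5.37 and 4.34) are above both controls (3.80 and 4.02).

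Other genes of the apoptosis pathway were taken from lists set by role. Of 64 such genes 56 had enough counts to be tested, and 0 of them passed an adjusted p of 0.05 in edgeR's quasi-likelihood test. At an unadjusted p under 0.05 there were 2, 1 higher (BIK) and 1 lower (TNFSF10, named here after its values were seen), beside 3.42% and 1.32% of all genes, and DESeq2's Wald test gave 0 of 56 at either level, beside 2.88% of all genes at the unadjusted one. After the length correction 4 of 56 were at that level in edgeR (BIK and TP73 higher, TNFSF10 and BNIP3L lower), beside 6.8% of all genes. When genes with few counts were kept, 1 of 61 (XAF1) passed in edgeR, beside 1.01% of all genes. Without CBX7 replicate 2 the count was 25 of 58, in the fit in which 35.5% of all genes passed. The median log2 fold change of the 56 was -0.06, against 0.00 over all genes tested. In TMM-normalized CPM both CBX7 libraries were above both controls for 6 of the 56 and below for 9. The shares of all genes tested were 15.4% and 14.8%.

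Among the BH3-only relatives of the members, BIK, which encodes a membrane-bound protein of the endoplasmic reticulum, had 58 and 41 estimated counts in control cells and 114 and 73 with CBX7. Both CBX7 libraries were higher, at 4.72 and 3.27 CPM against 2.43 and 1.95 CPM. BIK had a log2 fold change of 0.86 (standard error 0.29, unadjusted p = 0.0274 and adjusted p = 0.923, edgeR), and 0.68 after the length correction. BBC3, which encodes PUMA, was at 3.77 and 4.91 CPM in control cells and 5.22 and 3.85 CPM with CBX7, so the groups overlapped. HRK had 3 to 12 counts and was not tested. Of the other anti-apoptotic genes, BCL2L2, which encodes BCL-w, had a log2 fold change of -0.12 (standard error 0.14), BCL2A1 had 12 to 14 counts in a library, and BCL2L10 at most 4. The effector relative BOK was at 40.5 to 44.5 TPM, above BAK1 in every library, and had a log2 fold change of 0.12 (standard error 0.17). Of the 6 atypical members 4 were tested, from -0.29 for the mitophagy receptor BNIP3L (standard error 0.13) to 0.28 for BCL2L12 (standard error 0.20, and 0.03 without CBX7 replicate 1).

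Of the other IAP genes 5 of 6 were tested and all 5 fitted values were below 0, from -0.26 for the giant ubiquitin ligase BIRC6 to -0.06 for BIRC2, with 0 at an unadjusted p under 0.05 in this edgeR fit. In CPM the groups overlapped for each, and in TPM they overlapped for all but NAIP, at 1.62 and 1.68 TPM in control cells and 1.42 and 1.15 TPM with CBX7. XIAP, the direct caspase inhibitor, was at 84.4 and 106.0 CPM in control cells and 67.7 and 102 CPM with CBX7. In TPM it was at 25.1 and 40.9 in control cells and 51.3 and 38.6 with CBX7, where CBX7 replicate 1 was the highest library and not the lowest as in CPM. Its log2 fold change moved from -0.16 to -0.01 with the length correction. BIRC6, with 15703 bases, moved from -0.26 to -0.08. Without CBX7 replicate 1 the values of XIAP and BIRC6 were 0.11 and 0.19. The IAP antagonists DIABLO, which encodes SMAC, and HTRA2 were at 0.16 and 0.03. XAF1, which encodes an antagonist of XIAP, had 9 and 12 estimated counts in control cells and 0 and 1 with CBX7, too few for the filter. It was lower with CBX7 in the edgeR fit that kept such genes (adjusted p = 0.0437). Both CBX7 libraries were under 3 counts, the upper limit for a gene counted at 0. Among 9 apoptosome and caspase genes, all tested, the values ran from -0.22 for CASP10, an initiator caspase, to 0.29 for CYCS, which encodes cytochrome c. CYCS had 203 and 202 CPM in control cells and 274 and 223 CPM with CBX7, and its value was 0.11 after the length correction. CASP10 was at -0.08 and CYCS at 0.14 without CBX7 replicate 1.

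In the death receptor pathway TNFSF10, which encodes the ligand TRAIL, had 50 and 42 estimated counts in control cells and 27 and 26 with CBX7. Its levels were 2.10 and 2.00 CPM against 1.12 and 1.16 CPM, so the groups did not overlap, at a low level. Both CBX7 libraries were below both controls for 14.8% of all genes tested. TNFSF10 had a log2 fold change of -0.84 (standard error 0.28, unadjusted p = 0.0270 and adjusted p = 0.916, edgeR), and -0.92 after the length correction. The other tested genes of that list ran from -0.17 for the receptor FAS to 0.27 for the adaptor TRADD. Among partners that act on the members' proteins, the values ran from -0.24 for HUWE1, a ubiquitin ligase of MCL1, to 0.20 for VDAC2, a channel that binds BAK1. After the length correction HUWE1 was at -0.06 and VDAC2 at 0.08. Without CBX7 replicate 1 HUWE1 was at 0.16 and VDAC2 at 0.01. Of 8 transcription factors that act on the members 7 were tested. ATF4 was at 389.9 to 416.9 TPM over the 4 libraries, and TP73 had the highest value of the list, 0.29 with a standard error of 0.14, or 0.39 with a standard error of 0.10 after the length correction. FOXO3 had the lowest, -0.23.

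**Figure D5:**
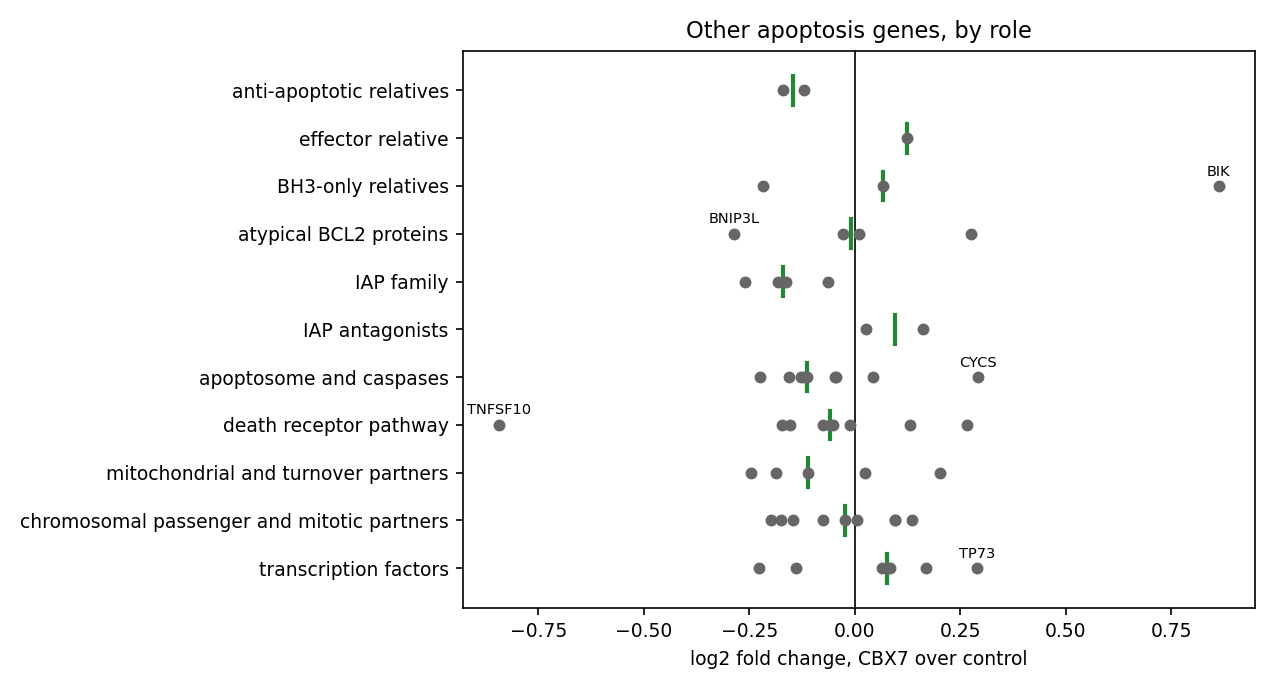
Log2 fold change, CBX7-overexpressing over control T24 cells, of the 56 tested pathway genes that are not members, in rows by role. Each grey point is a gene and each green bar the median of its list. BIK at 0.86 and TNFSF10 at -0.84 lie farthest from 0, and the other points lie between -0.29 and 0.29.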

How the data were processed

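Per the file headers, the authors deposited for each gene and library an estimated count and a TPM value. They also deposited the gene length, group means of TPM, and the columns of their own comparison (a fold or ratio, its log2, a p-value and an adjusted one), none of which was used except the length. The submitters' processing notes list cutadapt 1.9.1, HISAT2 2.0.1, HTSeq 0.6.1, DESeq2 and the build hg19. HTSeq counts are whole, but only 66.9% to 68.6% of the deposited counts above 0 were exactly whole (88.2% to 88.9% with zeros), so the tool behind them is not given in the sources used here. Libraries summed to 23626206, 20800910, 25135488 and 21961166 counts.

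Counts were rounded, filtered by filterByExpr, scaled by TMM and fitted by glmQLFit and glmQLFTest in edgeR 4.0.16 (R 4.3.3, limma 3.58.1). The model held the condition alone, and p-values were adjusted by Benjamini-Hochberg. Standard errors are the log2 fold change over the square root of F. DESeq2 1.42.0 was an alternative. The length correction subtracted, per library, a lowess trend (span 0.3) of log2 level on log2 gene length, fitted where the mean count was 100 or more. The edgeR and DESeq2 tests, the replicate block and the length correction were tested on simulated data. The libraries of a group were not copies of each other (chi-square per degree of freedom 6.49 for control and 59.7 for CBX7). Coordinates and coding sequences came from GENCODE release 29 on GRCh38, which holds 96.5% of the gene IDs and need not be the authors' annotation. In 14 rows the symbol had become a date, and these were renamed by gene ID.

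Members, gene lists, tests and alternatives were chosen with earlier results of these data known. Named are the 10 members, CBX7, list genes past an adjusted p of 0.05, the highest and lowest log2 fold change of each list among genes whose mean count was 50 or more, AURKB, INCENP, CDCA8, BBC3 and XIAP. TNFSF10 and XAF1 were named after their values were seen, and other genes for their role. The level of 1 list gene is not reported here. Alternatives were DESeq2's size factors and Wald test, no filter, the newer quasi-likelihood method, a replicate block, the length correction, both together, and each library left out. Class ratios on length-corrected levels were added after seeing the data.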

Additional observations from a re-analysis of the deposited data

How the results depend on the processing

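No member passed an adjusted p of 0.05 in edgeR or DESeq2 in any of the 8 fits to all 4 libraries, and the sign of every member held in them. Over all genes the count past that threshold was 3 with TMM, 265 with no filter, 67 with DESeq2's Wald test, 361 with the replicate block (2.43% of genes), 294 with the replicate block and the length correction together (1.98%), and 705 at an unadjusted p under 0.05. It ranged from 45 without control replicate 2 to 5491 without CBX7 replicate 2. In the fits with no filter, with the replicate block and with 1 library left out the prior degrees of freedom came out infinite and every gene was given the trended spread, and the cause of the differing counts was not tested. Same-numbered libraries deviated together (correlation 0.62 over 11077 genes with many counts and 0.38 over all 14862 tested, which are not independent replicates), but 2 numbers are too few to establish a pairing, and no source says that they mark a batch. In the replicate block BCL2 and BID had an unadjusted p under 0.05 in edgeR, beside 10.2% of all genes, and with the length correction as well BID had an adjusted p of 0.0552, while over the other fits to all 4 libraries it ran from 0.193 to 1. Of the 56 other pathway genes, 3 (BIK, BIRC6 and TNFSF10) had an unadjusted p under 0.05 in the replicate block in edgeR. With the length correction as well there were 4 (BIK, BNIP3L, TNFSF10 and TP73), beside 11.9% of all genes. BCL2 and BIRC6 did not reach that level there. Of the 13 marker genes tested, 3 passed the adjusted threshold in the replicate block (KRT19, FN1 and GATA3) and 3 with the length correction as well (KRT19, FN1 and CD68). GATA3 had 3 to 22 estimated counts in a library.

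Signs near 0 moved for other named genes. With the length correction, and with the replicate block added to it, the log2 fold changes were -0.0302 and -0.0182 for BBC3, -0.0269 and -0.0303 for HTRA2, and -0.0553 and -0.0556 for AURKB. The log2 difference in BAX over BAK1 was 0.496 within replicate number 1 and 0.108 within replicate number 2. Leaving out each library in turn gave log2 fold changes from -0.219 to 0.0778 for MCL1, from -0.154 to 0.0932 for BAK1, from -0.13 to 0.524 for BAD and from -0.11 to 0.0209 for PMAIP1. For other genes the limits were -0.0657 to 0.291 (BOK), -0.104 to 0.386 (DIABLO), -0.0559 to 0.528 (TRADD), -0.163 to 0.269 (BBC3), -0.91 to 0.194 (BIRC6), -0.178 to 0.209 (HTRA2), -0.793 to 0.156 (HUWE1), -0.669 to 0.159 (MKI67), -0.569 to 0.0541 (FOXO3), -0.138 to 0.296 (AURKB), -0.43 to 0.0472 (INCENP) and -0.493 to 0.109 (XIAP). For each of these genes one end of the range came without CBX7 replicate 1 and the other without CBX7 replicate 2. With signs that held, BIK was at 0.575, BCL2L2 at -0.0336, BIRC2 at -0.00302, CCNB1 at 0.0701 and FAS at -0.0887 without CBX7 replicate 1.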
